A study of Mus musculus with 4 samples.

Results

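The collagen genes described here are the 44 genes of the deposited mouse count matrix whose symbol is Col, a type number, the letter a and a chain number, out of 31053 genes in all. Membership rests on the symbol alone and no measured value decided it, but the family was chosen with earlier results of these data known. All 44 had at least 1 unique molecular identifier (UMI, a tag that counts 1 captured RNA molecule) in some library. Of these, 34 reached 50 UMIs in a gated cell type of at least 50 cells and are called measured: 33 in the libraries labelled E14.5 and 8 in those labelled E18.5.

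Collagens are secreted or membrane-anchored proteins built from a triple helix of chains. Fibril-forming collagens (types I, II, III, V, XI, XXIV and XXVII) make the tensile fibrils of mesenchyme and cartilage, and type IV makes the sheet-like network of basement membranes. Type VI forms beaded microfibrils, the fibril-associated collagens coat fibril surfaces, and the multiplexins (types XV and XVIII) lie in basement membrane zones. In the fetal lung, mesenchymal cells lay down the fibrils, while epithelium, endothelium and pericytes contribute to the basement membranes between airway, capillary and stroma.

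The 4 groups hold 1 single-cell library each. All fetuses were labelled Cyp27a1-/-, that is, without the sterol 27-hydroxylase of bile acid and oxysterol synthesis. They were labelled E14.5 or E18.5 and carried by a Cyp27a1+/- mother (here heterozygous) or a Cyp27a1-/- mother (here null). Within an age the 2 groups are labelled to differ in the mother's genotype, and the libraries also differ as given below. The number of fetuses pooled per library and the kind of null allele are not given in the sources used here. Dissected lungs were digested with collagenase and dispase, and red cells were lysed, before Chromium capture. With 1 library per group no test between groups is possible. Every interval below is an exact 95% interval that covers counting error only, and a ratio between mothers compares 2 libraries, not 2 conditions. Paired values are given in the order heterozygous mother, null mother.

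The libraries held 4843 to 17034 cells and 47005276 to 118054232 UMIs, with 3697 to 6387 UMIs per median cell. The 2 libraries labelled E18.5 held almost no lung cells: they counted only 4 and 1 UMIs of Nkx2-1, which drives lung epithelial identity, where the E14.5 pair counted 1935 and 2804. Alb, the albumin gene of hepatocytes, stood at 2905 and 8344 counts per 1000000 UMIs (CPM) in the E18.5-labelled libraries, against 0.574 and 0.469 CPM in the others. The E18.5-labelled pair is therefore described by what its cells express, blood and liver genes, and no difference from the E14.5 pair is read as one of age. Its heterozygous-mother library also carries a wild-type tag in its title that its genotype label does not, and had 22 cells marked female against 5395 marked male (4411 and 3875 in the null-mother library). Cyp27a1 RNA was counted in all 4 libraries at 18.7, 19.7, 38.5 and 37.3 CPM. A tag outside the deleted stretch would still be counted, so this is no check on the null allele. The E14.5 pair differed in more than the mother label too. Sftpc, a surfactant gene, stood at 280 and 1444 CPM there. Cells marked male numbered 819 and 726, and cells marked female 1507 and 2052. The part of these differences in the collagen ratios was not tested. Any 2 libraries shared 93 to 164 cell barcodes.

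Cell types were gated with 21 lists of 8 marker genes, none of them a collagen. A cell entered a gate with at least 3 markers of its list and a margin over all other lists. At E14.5 the gates held 1231 and 1085 lung fibroblasts, 495 and 437 smooth muscle cells, 61 and 64 pericytes, 314 and 520 endothelial cells and 381 and 556 epithelial cells. Mesothelium (73 cells, 20 in the null-mother library) and heart muscle (88 and 45 cells) reached 50 cells in 1 library only. The E18.5-labelled libraries gave 435 and 391 endothelial cells, 598 and 1944 hepatocytes, 1191 and 1306 early and 4849 and 2406 late erythroid cells, and gates of B lineage, neutrophils, macrophages and megakaryocytes. Their lung fibroblast gate held 3 cells in each library. Cells that entered no gate held 15.9% and 13.6% of the collagen UMIs of the E14.5 pair and 17.1% and 20.3% of those of the other pair.

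**Figure D1:**
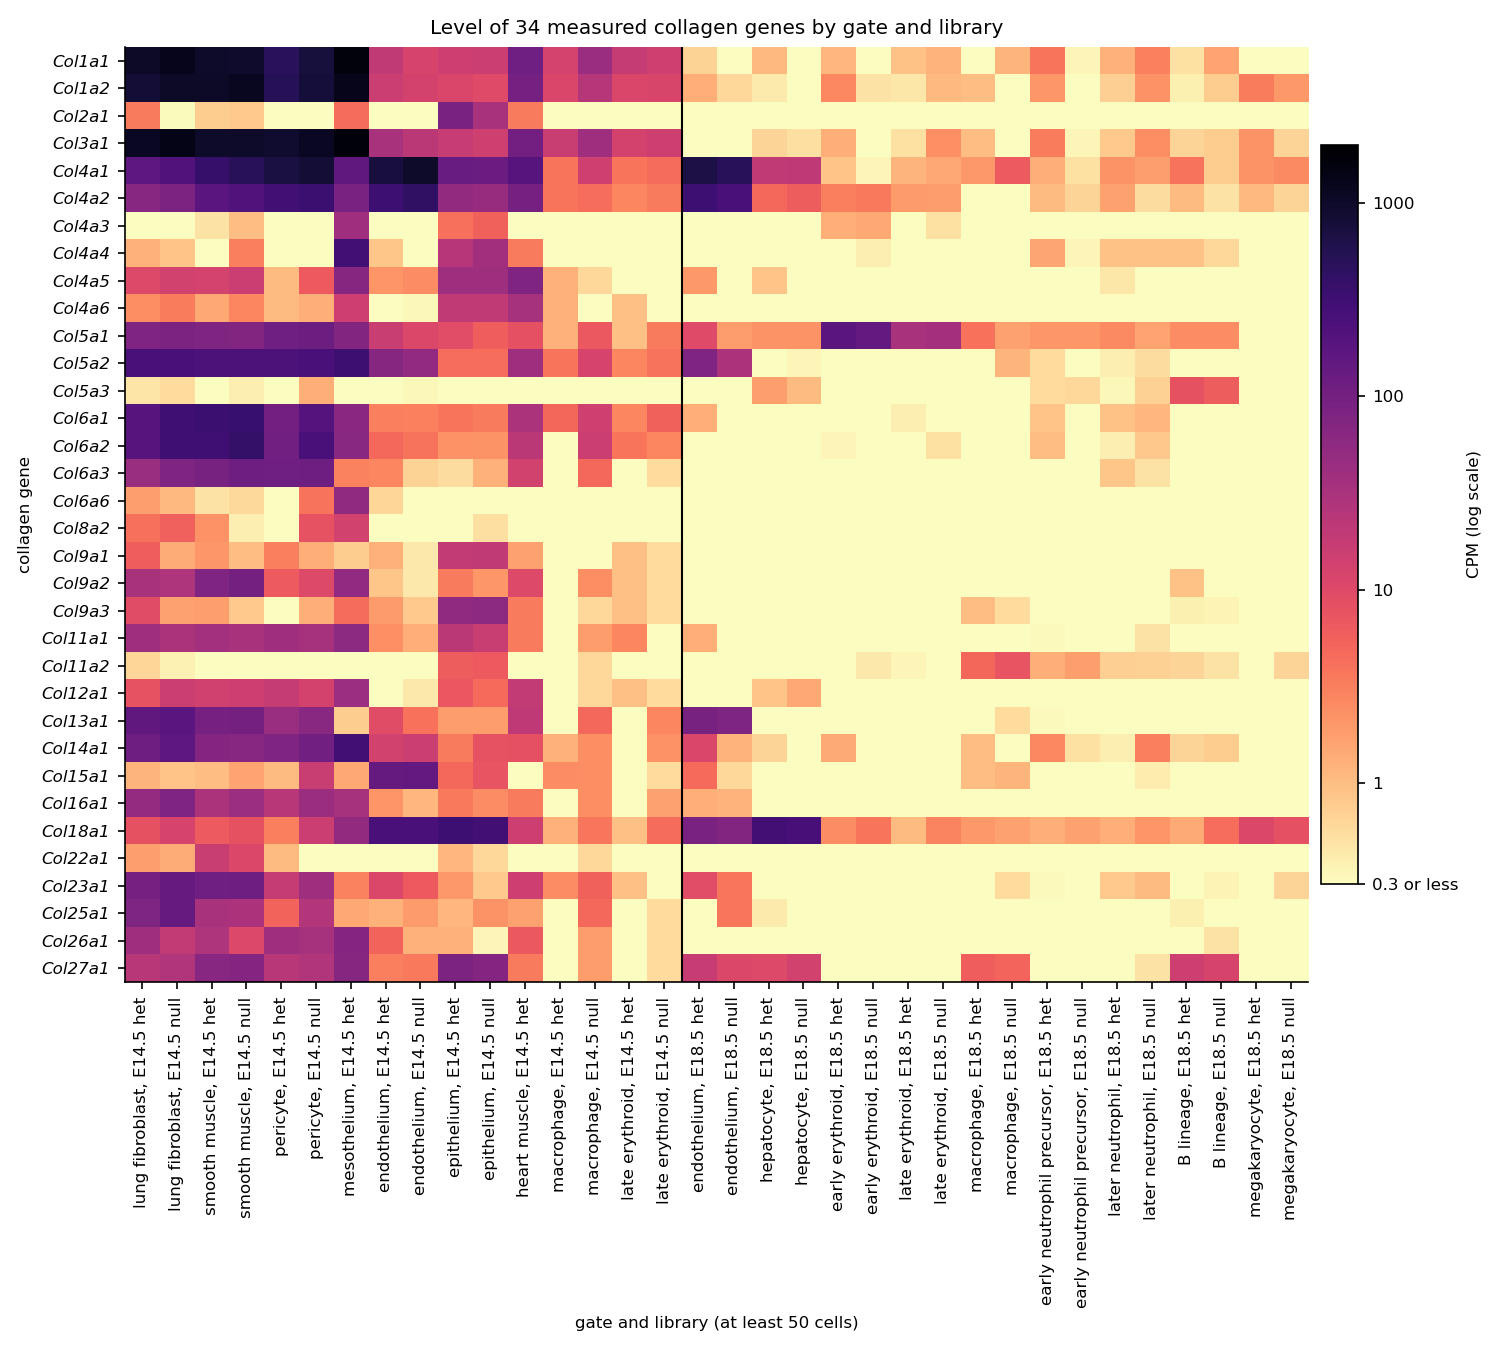
Heat map of the 34 measured collagen genes (rows) by gate and library (columns, at least 50 cells each; the vertical line divides libraries labelled E14.5 from E18.5), with colour giving CPM on a log scale. Dark blocks mark types I, III, V and VI in the mesenchymal gates of E14.5, Col4a1 and Col4a2 in endothelium of both ages, Col18a1 in epithelium, endothelium and hepatocytes, and Col5a1 in early erythroid cells.

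Collagen RNA was concentrated in the mesenchymal gates at E14.5, where it made up 0.468% and 0.581% of all UMIs of lung fibroblasts, 0.523% and 0.561% of smooth muscle and 0.39% and 0.527% of pericytes. In endothelium the share was 0.167% and 0.197%, and in epithelium 0.0948% and 0.0858%. The make-up differed by gate as much as the amount did. Fibril-forming chains were 72.6% and 69.4% of the collagen UMIs of lung fibroblasts and 65.3% and 62.3% of those of smooth muscle. Type IV chains were 63.3% and 71.8% of the collagen UMIs of endothelium. Epithelium was divided among multiplexins (33.5% and 35.3%), type IV (28.3% and 31.4%) and fibril-forming chains (26.9% and 20.4%). Pericytes stood between mesenchyme and endothelium, with 59.8% and 59% fibril-forming and 25.7% and 22.4% type IV.

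**Figure D2:**
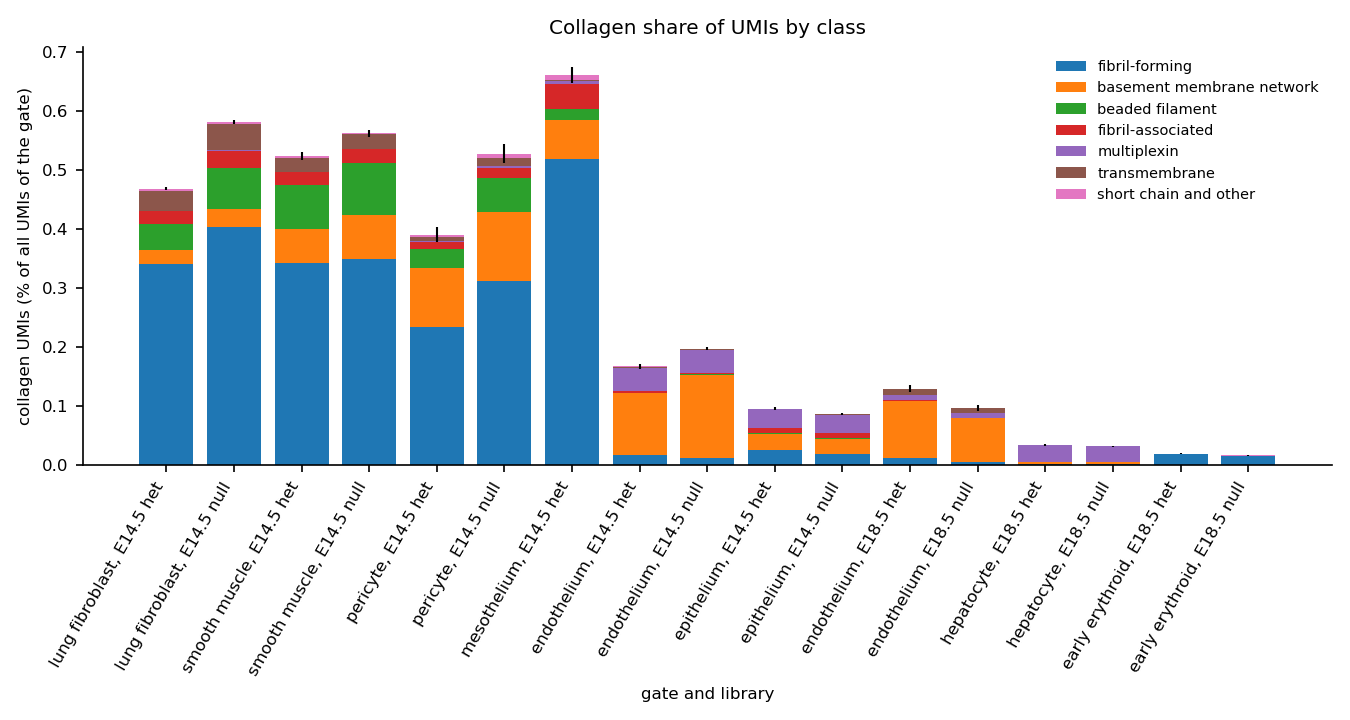
Stacked bars of collagen UMIs as a percent of all UMIs of a gate, by collagen class, for gates of at least 50 cells in each library; black bars are exact 95% binomial intervals of the total. Mesenchymal gates reach 0.39% to 0.581% and mesothelium of the heterozygous-mother library is higher still, while hepatocytes (0.033% and 0.0319%) hold mostly a multiplexin and early erythroid cells (0.0189% and 0.0158%) mostly a fibril-forming chain.

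Among the fibril-forming genes, Col3a1 (the single chain of type III, typical of soft tissue) and Col1a1 and Col1a2 (the chains of type I) were the most abundant by UMIs, which count molecules and are not scaled by length. Col3a1 stood at 1129 CPM (interval 1114 to 1145) and 1333 CPM (1315 to 1351) in lung fibroblasts, 988 and 981 CPM in smooth muscle and 921 and 1140 CPM in pericytes. Col1a1 stood at 1019 and 1274 CPM in lung fibroblasts, 983 and 939 CPM in smooth muscle and 476 and 743 CPM in pericytes. Col1a2 was at 846 and 1022, 1027 and 1162, and 531 and 785 CPM in the same gates. Mesothelium of the heterozygous-mother library was above all of these, with 1721 CPM of Col3a1, 1624 CPM of Col1a1 and 1306 CPM of Col1a2. The smaller gate of Lum Dcn fibroblasts (44 and 34 cells, levels only) reached 3567 and 2504 CPM of Col1a1. The ratio of Col1a1 to Col1a2 UMIs was 1.21 and 1.25 in lung fibroblasts but 0.956 and 0.808 in smooth muscle, whose intervals do not overlap those of fibroblasts in either library.

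These same genes were counted at a low level in late erythroid cells and macrophages, which are not taken here as their source. In E14.5 late erythroid cells Col1a1 had 19 and 26 UMIs (17.8 CPM in the heterozygous-mother library) and Col3a1 stood at 13.1 and 15.1 CPM, and in macrophages Col1a1 was at 12.6 and 42.6 CPM. Epithelium (14.9 and 15.4 CPM of Col1a1) and endothelium (19.6 and 12.3 CPM of Col1a1) stayed within or near that range, so these Col1a1 values are not read as expression. Endothelium held 31.3 and 21.4 CPM of Col3a1, beside 16.3 and 38.9 CPM in macrophages. Its ratio of Col3a1 to Col1a1 UMIs was 1.59 (1.22 to 2.09) and 1.74 (1.37 to 2.23), against 1.11 and 1.05 in lung fibroblasts. Whether endothelium makes Col3a1 was not tested. With every cell thinned to 2000 UMIs, 75.2% and 84.4% of lung fibroblasts had a Col1a1 UMI, against 3.88% and 3.43% of late erythroid cells (median depth 15034 and 14330 against 9232.5 and 8596 UMIs). Unthinned shares were 93.1% and 96.2% against 10.3% and 8.33%.

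Col5a1 and Col5a2, whose type V chains start fibrils and set their width, were also mesenchymal at E14.5. Col5a2 stood at 258 and 260 CPM in lung fibroblasts, 237 and 233 CPM in smooth muscle and 231 and 260 CPM in pericytes, so these 3 gates did not separate. Endothelium held 68.6 and 52.8 CPM of Col5a2, above the 2.8 and 3.9 CPM of late erythroid cells and the 3.77 and 12.2 CPM of macrophages. Col5a1 had 0.304 and 0.322 UMIs per Col5a2 UMI in lung fibroblasts, 0.326 and 0.317 in smooth muscle and 0.237 and 0.207 in endothelium. In epithelium this ratio was 2.1 (1.35 to 3.33) and 1.39 (0.947 to 2.05), at low levels of both genes. Col5a3 stayed at or below 0.567 CPM in lung fibroblasts and had its highest level in B lineage cells of the E18.5-labelled libraries (8.06 and 6.01 CPM).

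The chains best known from cartilage split between epithelium and mesenchyme. Col2a1, the chain of type II, stood at 87.2 (80.5 to 94.3) and 32.1 (28.9 to 35.5) CPM in epithelium and at or below 3.42 CPM in the other 6 gates with 50 cells in both E14.5 libraries. Col9a3 stood at 54.6 and 58.2 CPM and Col9a1 had 133 and 223 UMIs in epithelium (19.6 CPM in the null-mother library), whereas Col9a2, the remaining chain of type IX, was at 3.34 and 2.02 CPM there. Col9a2 was instead highest in smooth muscle, at 77.9 and 97.4 CPM, with 31.7 and 28.9 CPM in lung fibroblasts. Type IX coats type II fibrils in cartilage, where its 3 chains make 1 molecule. Col11a1, which starts type II fibrils, was spread over lung fibroblasts (38.4 and 30.7 CPM), smooth muscle (37 and 31.5 CPM), mesothelium of the heterozygous-mother library (58.2 CPM) and epithelium (21.9 and 16.5 CPM), and Col11a2 was measured in epithelium only, at 6.13 and 6.41 CPM. Col27a1, a fibril-forming chain of cartilage, stood at 83.3 and 70.1 CPM in epithelium, close to smooth muscle (65.2 and 69.7 CPM) and above lung fibroblasts (23.2 and 26.8 CPM). For comparison, the cartilage gate held 2 cells in all, both of the E14.5 null-mother library, with 111 Col2a1 UMIs.

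A gene was called gate-restricted when its CPM in a gate was at least 4 times that of every other gate, in both libraries of an age. At E14.5, 6 of 30 collagen genes that reached 50 UMIs in both libraries of a gate met this, and 6.92% of all genes so tested did. Col2a1, Col4a4, Col4a6 and Col9a3 met it in epithelium, Col22a1 in smooth muscle and Col15a1 in endothelium. The comparison spans 7 gates and leaves out mesothelium and heart muscle, where some of these genes were higher, as given below. The exons of Col9a3 overlap those of Tcfl5 on the opposite strand by 234 bases, but Tcfl5 had only 3 and 4 UMIs in epithelium.

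Type IV collagen is made of 6 chains, encoded by 3 gene pairs that start head to head. Col4a1 and Col4a2 form the common basement membrane network, and they were highest in endothelium and pericytes. Col4a1 stood at 731 (707 to 756) and 974 (953 to 994) CPM in endothelium and 701 (649 to 757) and 832 (769 to 899) CPM in pericytes, so the 2 gates overlapped in the heterozygous-mother library only. Smooth muscle followed with 383 and 502 CPM of Col4a1, then lung fibroblasts with 162 and 207 CPM and epithelium with 129 and 120 CPM. Col4a2 ran in parallel, at 320 and 436 CPM in endothelium and 297 and 339 CPM in pericytes. The Col4a1 to Col4a2 ratio was 2.28 and 2.23 in E14.5 endothelium, 2.05 and 2.03 in endothelium of the E18.5-labelled libraries, and between 2.18 and 2.56 in lung fibroblasts, smooth muscle, pericytes and epithelium. It was 1.71 (1.36 to 2.16) in mesothelium of the heterozygous-mother library and 4 (2.48 to 6.7) and 3.27 (2.63 to 4.11) in hepatocytes. In early erythroid cells of the E18.5-labelled libraries it was turned round, at 0.278 (15 Col4a1 UMIs against 54 of Col4a2) and 0.1 (7 against 70), at low levels of both genes.

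The other 4 chains, which replace Col4a1 and Col4a2 in specialised basement membranes such as those of kidney and alveolus, were higher in epithelium, mesothelium or heart muscle than in lung fibroblasts. Col4a5 stood at 40.2 and 39.9 CPM and Col4a6 at 19.6 and 19.6 CPM in epithelium, against 10.1 and 13.6 CPM and 2.37 and 3.28 CPM in lung fibroblasts. Heart muscle cells of the heterozygous-mother library had higher values than epithelium, with 78.8 CPM (57.9 to 105) of Col4a5 and 33.5 CPM (20.5 to 51.8) of Col4a6, from 47 and 20 UMIs. For Col4a6 the interval overlaps that of epithelium. Mesothelium of that library held 67.1 CPM (54 to 82.5) of Col4a5 and 14.9 CPM (9.11 to 23) of Col4a6, with intervals that overlap those of heart muscle. Col4a4 was at 23.8 and 37.6 CPM in epithelium and at 292 CPM (263 to 322) in mesothelium of the heterozygous-mother library. In the 20 mesothelial cells of the null-mother library Col4a4 was at 356 CPM (294 to 428). Col4a3 followed its partner at a lower level, with 5.7 and 6.79 Col4a4 UMIs per Col4a3 UMI in epithelium and 7.38 in mesothelium. Part of Col4a3 (563 exon bases) lies opposite a processed transcript, C430014B12Rik.

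Col4a3 and Col4a4 are shown because they leave from a single short stretch of DNA and were high in the same gates. The annotated genes are 71 bases apart on chromosome 1 of GRCm38, Col4a4 on the minus and Col4a3 on the plus strand. The stretch between them, chr1:82586850-82586920, is printed from the RefSeq promoter windows (GRCm38.p6) on the Col4a4 strand, 5′ to 3′.
Col4a4 to Col4a3: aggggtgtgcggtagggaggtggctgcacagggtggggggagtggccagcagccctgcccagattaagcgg
Its GC content is 69%. It holds none of 3 common promoter motifs on either strand: the TATA box (searched as TATAAA), the CCAAT box (its 5 letters) and the GC box (searched as GGGCGG). Of 32851 RefSeq promoter windows of full length, read over the 250 bases before the start, 12.4% hold the first, 33.9% the second and 32.7% the last. A stretch of 71 bases has less room for a match than these windows, so the shares are no measure of what it should hold. Col4a5 and Col4a6 are likewise head to head, 1308 bases apart on the X chromosome, and Col4a1 and Col4a2 overlap by 22 exon bases at their starts.

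Type VI chains assemble from Col6a1, Col6a2 and one more chain, usually that of Col6a3. Col6a1 was highest in smooth muscle, at 341 (324 to 360) and 370 (353 to 387) CPM, followed by lung fibroblasts at 193 and 303 CPM and pericytes at 102 and 196 CPM. Col6a2 matched it closely, with 312 and 387 CPM in smooth muscle and 191 and 308 CPM in lung fibroblasts. The ratio of Col6a1 to Col6a2 UMIs was 1.01 (0.962 to 1.06) and 0.981 (0.943 to 1.02) in lung fibroblasts. Col6a3 had 0.232 and 0.258 UMIs per Col6a1 UMI in lung fibroblasts and 0.269 and 0.304 in smooth muscle, but 1.08 (0.814 to 1.44) and 0.586 (0.446 to 0.766) in pericytes. In mesothelium of the heterozygous-mother library the ratio was 0.0494 (4 Col6a3 UMIs against 81). There the alternative chain Col6a6 stood at 54.5 CPM (73 UMIs), while it was at or below 1.74 CPM in lung fibroblasts and smooth muscle. In the 20 mesothelial cells of the null-mother library Col6a6 was at 102 CPM (33 UMIs) and Col6a3 at 34.1 CPM (11 UMIs). Col6a4 and Col6a5 stayed under 50 UMIs in every gate.

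The upstream sequences of Col6a1, Col6a2 and Col6a3 are printed because all 3 were called higher in lung fibroblasts of the null-mother library, as given below. This did not hold in smooth muscle or, for Col6a3, in pericytes. Each is the part of the RefSeq window (GRCm38.p6) before the outermost annotated start, 5′ to 3′ on the gene's own minus strand; the 2 former lie on chromosome 10, 85161 bases apart, and Col6a3 on chromosome 1. Capitals mark GGGCGG or its reverse complement.
Col6a1, chr10:76726169-76726294: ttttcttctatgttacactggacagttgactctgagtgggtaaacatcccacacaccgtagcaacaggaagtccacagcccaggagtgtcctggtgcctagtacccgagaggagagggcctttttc
Col6a2, chr10:76623631-76623880: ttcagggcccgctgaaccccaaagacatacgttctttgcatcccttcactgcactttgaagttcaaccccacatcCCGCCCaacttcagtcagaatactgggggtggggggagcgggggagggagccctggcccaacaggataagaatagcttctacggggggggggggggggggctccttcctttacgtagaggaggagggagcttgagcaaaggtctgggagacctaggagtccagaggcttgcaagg
Col6a3, chr1:90843972-90844221: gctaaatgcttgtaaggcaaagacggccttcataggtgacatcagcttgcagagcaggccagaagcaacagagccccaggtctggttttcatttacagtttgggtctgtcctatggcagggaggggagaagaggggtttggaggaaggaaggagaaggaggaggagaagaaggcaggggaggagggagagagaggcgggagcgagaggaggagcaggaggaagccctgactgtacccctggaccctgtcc
None of the 3 stretches holds a TATA box or a CCAAT box on either strand, and only that of Col6a2 holds a GC box. The stretch of Col6a1 is shorter, at 126 bases, and has less room for a match. Their GC contents are 51.6%, 59.2% and 57.2%.

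Of the other fibril-associated genes, Col14a1, which binds fibrils through decorin, was highest in mesothelium of the heterozygous-mother library (295 CPM, 266 to 325). It stood at 115 and 159 CPM in lung fibroblasts, 70.2 and 65.9 CPM in smooth muscle and 77.7 and 107 CPM in pericytes. Col16a1 was at 49.7 and 76.7 CPM in lung fibroblasts and 30.2 and 41.6 CPM in smooth muscle. Col12a1, the fibril-associated chain of tendon and dense tissue, was low, at 7.68 and 16.1 CPM in lung fibroblasts and 41.8 CPM in mesothelium. Col22a1, known from tissue junctions such as that of muscle and tendon, was at 16.7 (13 to 21.3) and 10.9 (8.2 to 14.2) CPM in smooth muscle. Lung fibroblasts were next, at 1.79 and 1.39 CPM of Col22a1.

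The multiplexins Col15a1 and Col18a1 marked endothelium and epithelium. Col15a1 stood at 138 (128 to 149) and 144 (137 to 152) CPM in endothelium, with no other gate of 50 cells above 16.7 CPM. Col18a1, the source of the fragment endostatin, was shared: 313 (300 to 326) and 295 (285 to 305) CPM in epithelium and 257 (243 to 272) and 253 (242 to 263) CPM in endothelium. Lung fibroblasts were at 7.94 and 12.2 CPM of Col18a1.

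Of the membrane-spanning collagens, 3 were mesenchymal. Col13a1, known from the neuromuscular junction, stood at 155 (150 to 161) and 179 (173 to 186) CPM in lung fibroblasts and 96.7 and 98.4 CPM in smooth muscle. Col23a1 was at 96 (91.6 to 100.5) and 135 (130 to 141) CPM in lung fibroblasts and 108 (98 to 119) and 113 (104 to 123) CPM in smooth muscle, so that the gates overlapped in the heterozygous-mother library and fibroblasts were higher in the other. Col25a1, needed for the growth of motor axons into muscle, was at 80.6 and 134 CPM in lung fibroblasts against 31.7 and 29.9 CPM in smooth muscle and at or below 2.2 CPM in epithelium and endothelium. Of the short-chain and other collagens, Col26a1 stood at 38.7 and 18.6 CPM in lung fibroblasts and Col8a2, of the type VIII network, at 4.1 and 5.61 CPM. The 10 genes that were not measured were Col6a4, Col6a5, Col7a1, Col8a1, Col10a1, Col17a1, Col19a1, Col20a1, Col24a1 and Col28a1, with 1 to 77 UMIs over a whole E14.5 library. Col10a1 of hypertrophic cartilage had 1 and 3 UMIs.

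Within the epithelium gate, cells were divided by Sox9, the factor of the growing bud tips, and Sox2, that of the conducting airways; 192 and 278 cells had Sox9 UMIs only and 65 and 102 had Sox2 UMIs only. This division was chosen after values were seen. Collagen was 0.1% and 0.1% of UMIs in the Sox9 cells and 0.0487% and 0.0409% in the Sox2 cells, at median depths of 27094 and 27540 against 16099 and 17818 UMIs. Col18a1 carried most of this, at 367 and 392 CPM in Sox9 cells and 28.4 and 29.3 CPM in Sox2 cells, ratios of 12.9 (8.85 to 19.7) and 13.4 (10.1 to 18). Col9a3 stood at 67.1 and 82.2 CPM in Sox9 cells and had 3 UMIs among the Sox2 cells of each library, with ratios of 21.3 (7.23 to 104) and 47.7 (16.3 to 232). Col2a1 was 4.07 and 4.53 times and Col27a1 2.31 and 2.49 times higher in Sox9 cells. Of type IV, Col4a2 was also higher there, with ratios of 2.11 (1.39 to 3.35) and 1.79 (1.33 to 2.45), and Col4a1 was at 1.1 (0.897 to 1.36) and 1.54 (1.29 to 1.85). Col4a5 went the other way, at 0.503 (0.369 to 0.694) and 0.528 (0.415 to 0.677) times its level in Sox2 cells, whereas the ratio of Col4a4 was 1.15 (0.694 to 2.01) and 1.34 (0.98 to 1.86). Of all genes with 50 UMIs, 20.3% and 15.1% were at least 1.5 times higher in the Sox9 cells and 6.74% and 11.1% lower. The Sox9 cells held 5109501 and 7466739 UMIs against 951645 and 1741207, so genes high in them reach 50 UMIs more readily. Among genes measured in both libraries, Col1a1, Col2a1, Col4a4, Col9a1 and Col9a3 reached it in the Sox9 cells only. So did Col4a2, Col18a1 and Col27a1 in the heterozygous-mother library. Nothing is read from how many collagen genes were higher there.

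**Figure D3:**
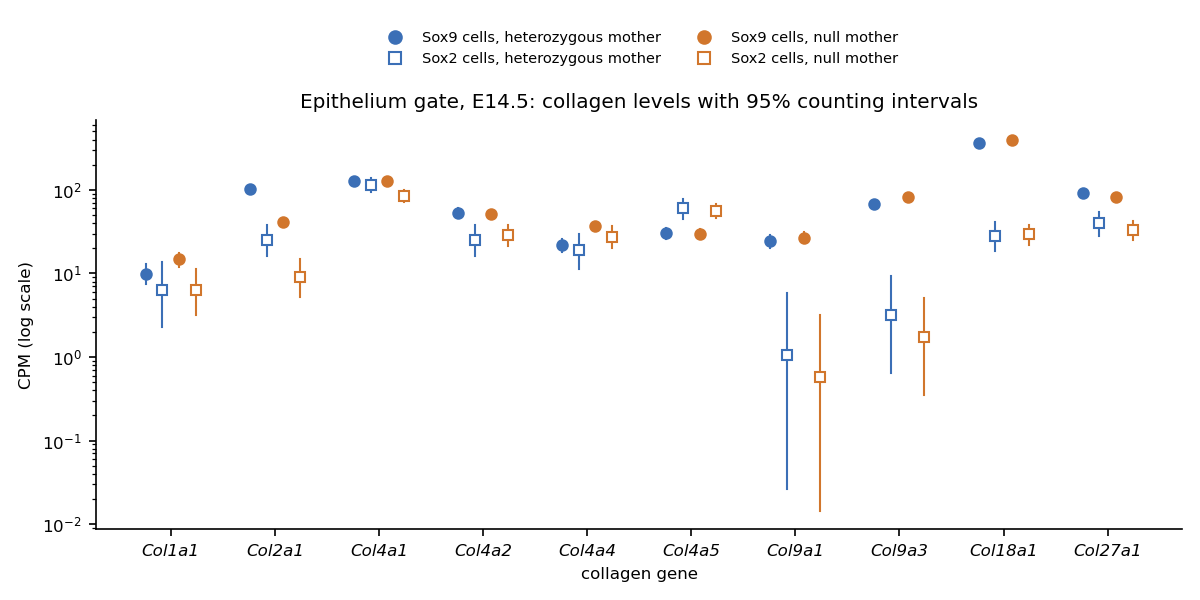
CPM (log scale) of the 10 collagen genes measured in both libraries in epithelial cells with Sox9 UMIs only (filled circles) or Sox2 UMIs only (open squares), E14.5, with exact 95% Poisson intervals. Col2a1, Col4a2, Col9a1, Col9a3, Col18a1 and Col27a1 lie higher in Sox9 cells in both libraries and Col4a5 lies lower. All but Col4a1 and Col4a5 had under 50 UMIs in the Sox2 cells of the heterozygous-mother library.

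In the E18.5-labelled libraries 8 collagen genes were measured, and 4 of the 6 with 50 UMIs in both libraries of a gate were gate-restricted, against 12.3% of all genes. Col4a1, Col4a2 and Col13a1 met this in endothelium and Col5a1 in early erythroid cells. Endothelium held 651 (611 to 693) and 503 (470 to 539) CPM of Col4a1 and 317 and 248 CPM of Col4a2, while hepatocytes, the next gate, had 19.3 and 20.1 and 4.82 and 6.14 CPM. Col13a1 stood at 93.5 (78.7 to 110) and 78.9 (65.9 to 93.8) CPM in this endothelium and at most at 0.576 CPM in any other gate of at least 50 cells. After thinning to 2000 UMIs, 16.5% (12.5% to 21.1%) and 13.2% (9.69% to 17.4%) of endothelial cells had a Col13a1 UMI. In the E14.5 endothelium the same gene was at 9.5 and 4.06 CPM, and Col15a1 was at 138 and 144 CPM there but at 4.64 and 0.612 CPM in the E18.5-labelled endothelium (7 and 1 UMIs). Tissue and age cannot be told apart in that contrast. Hepatocytes made Col18a1 at 284 (269 to 300) and 271 (263 to 279) CPM, which was 86.3% and 85% of their collagen UMIs, and 40.7% and 39.6% of them had a Col18a1 UMI after thinning. B lineage cells held 14.7 and 12.1 CPM of Col27a1, near endothelium (17.2 and 11 CPM) and hepatocytes (10.1 and 13.3 CPM) and above the 0.2 to 0.487 CPM of both neutrophil gates and the early erythroid cells.

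Fibroblast-like cells were rare there. The 5 mesenchymal gates together held 51 and 34 cells, with collagen at 1.63% and 1.75% of UMIs. Col3a1 stood at 3480 and 3747 CPM, Col1a1 at 3116 and 3650 CPM and Col14a1 at 1372 and 1615 CPM in these cells. Mesothelium (25 and 17 cells) reached 4526 and 5191 CPM of Col1a1. These gates are too small for ratios between mothers.

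Col5a1 in early erythroid cells stood apart from its partner chain. It was at 171 (165 to 177) and 145 (140 to 151) CPM, from 2899 and 2913 UMIs, with Col5a2 at 3 and 6 UMIs in the same cells. The ratio of the 2 chains was therefore 966 (330 to 4689) and 486 (223 to 1324), against 0.304 and 0.322 in E14.5 lung fibroblasts. Late erythroid cells held 31.3 and 34.8 CPM of Col5a1, and the neutrophil, B lineage, macrophage and hepatocyte gates 1.6 to 3.96 CPM. Cells in no gate held 56.3 and 36.2 CPM of Col5a1. After thinning to 2000 UMIs, 24.7% (22.2% to 27.3%) and 21.9% (19.6% to 24.3%) of early erythroid cells had a Col5a1 UMI, against 2.93% and 3.68% of late erythroid cells and 0.591% and 0.19% of early neutrophil precursors. Unthinned shares were 65.9% and 61%, 6.33% and 6.15%, and 1.79% and 1.28%, at median depths of 14256 and 15637, 3253 and 3362, and 11493 and 11520 UMIs. Col1a1 was found in 0 of 1144 and 0 of 1247 thinned early erythroid cells, which allows shares of up to 0.262% and 0.241% of cells with a UMI. Unthinned, 0.504% and 0.23% of early erythroid cells had a Col1a1 UMI, from 19 and 3 UMIs. At E14.5 the late erythroid cells had 1 and 6 Col5a1 UMIs. The exons of Col5a1 overlap 2 processed transcripts on the opposite strand by 99 and 113 of 8490 bases; whether the counting used strand is not given in the sources used here. The gate-restricted call for Col5a1 was lost among male cells and under a quality limit of 1000 genes and 10% mitochondrial reads per cell.

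**Figure D4:**
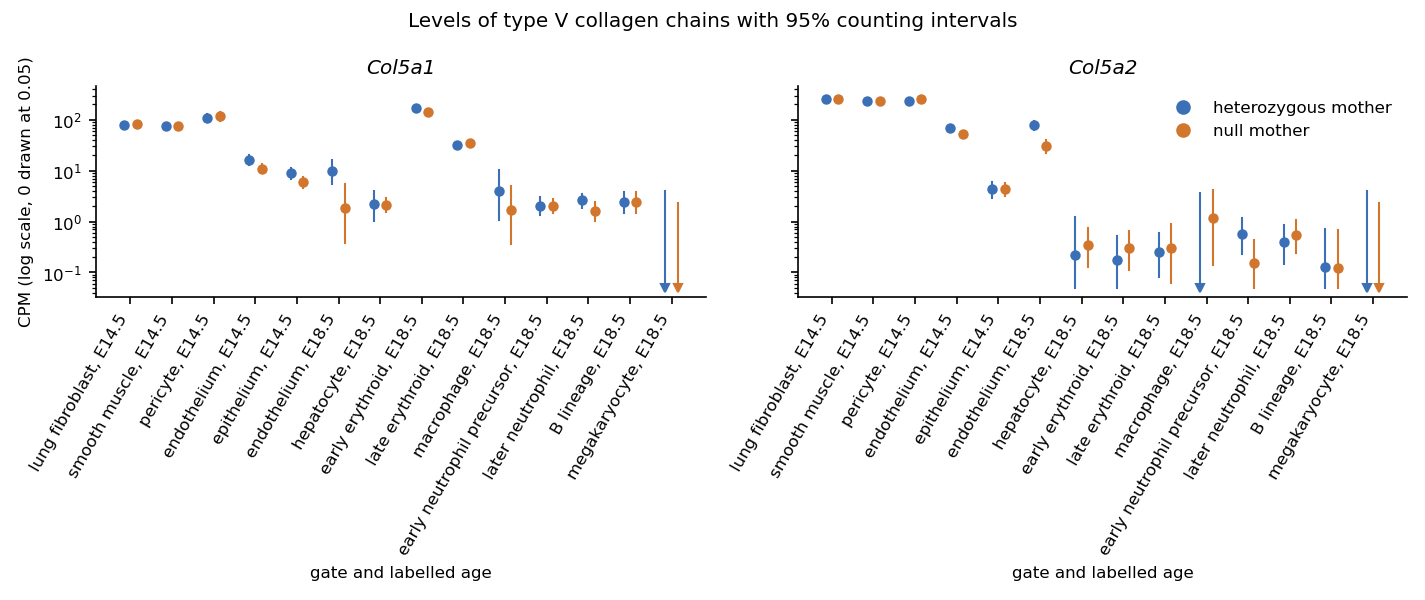
CPM (log scale, 0 drawn at 0.05) of Col5a1 (left) and Col5a2 (right) by gate and labelled age in the libraries of heterozygous and null mothers, with exact 95% Poisson intervals. Both chains are high in E14.5 mesenchyme, whereas in early erythroid cells Col5a1 is at 171 and 145 CPM and Col5a2 at 0.177 and 0.299 CPM.

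The stretch before the Col5a1 start is shown because the gene was counted in erythroid cells, where GATA factors are active. Both forms of their motif, AGATAA and also TGATAA, were searched. It is chr2:27886175-27886424 on the plus strand (GRCm38.p6, RefSeq), 5′ to 3′, with GGGCGG or its reverse complement in capitals.
Col5a1: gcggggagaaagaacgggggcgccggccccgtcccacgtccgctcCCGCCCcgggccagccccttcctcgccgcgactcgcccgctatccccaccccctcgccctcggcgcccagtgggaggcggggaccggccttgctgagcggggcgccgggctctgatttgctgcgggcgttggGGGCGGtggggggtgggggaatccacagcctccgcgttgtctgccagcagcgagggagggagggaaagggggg
The stretch has 76.4% GC, 2 GC boxes, and neither of the GATA motifs, a TATA box nor a CCAAT box on either strand. Either GATA motif is found in 16.6% of all RefSeq windows of this length. No match says only that these letters are not in this window.

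Between mothers, a gene was called when its CPM ratio (null over heterozygous) was at least 1.5 or at most 1/1.5, with 50 UMIs in the library where it was higher. In E14.5 lung fibroblasts the summed collagen share was 0.468% (0.465% to 0.471%) against 0.581% (0.577% to 0.584%), a ratio of 1.24. Of 27 measured collagen genes, 7 were called higher and 4 lower, where 2.78% and 2.15% of all 10784 genes were. The median log2 ratio was 0.33 for the collagen genes and -0.03 for all genes. All 3 main type VI genes were among those higher: Col6a1 went from 193 to 303 CPM (ratio 1.57, 1.5 to 1.64), Col6a2 from 191 to 308 CPM (1.61, 1.54 to 1.68) and Col6a3 from 44.7 to 78.1 CPM (1.75, 1.6 to 1.91). Col25a1 went from 80.6 to 134 CPM (1.66, 1.56 to 1.78), Col16a1 from 49.7 to 76.7 CPM (1.55, 1.42 to 1.68), Col12a1 from 7.68 to 16.1 CPM (2.1, 1.71 to 2.59) and Col18a1 from 7.94 to 12.2 CPM (1.54, 1.24 to 1.92). Over all cells of the 2 libraries Col18a1 stood at 89.4 and 121 CPM. The part of RNA from other cells in its low level here was not tested. The abundant fibril chains were nearer to 1, with ratios of 1.25 (1.23 to 1.28) for Col1a1, 1.21 (1.18 to 1.24) for Col1a2, 1.18 (1.16 to 1.2) for Col3a1, 1.07 (0.989 to 1.15) for Col5a1 and 1.01 (0.965 to 1.05) for Col5a2.

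The 4 genes called lower in lung fibroblasts were Col26a1 and 3 cartilage genes. Col26a1 went from 38.7 to 18.6 CPM (0.48, 0.418 to 0.551), and it was also lower in smooth muscle, from 28.5 to 10.5 CPM (0.368, 0.261 to 0.515). Col9a3 went from 181 to 27 UMIs (ratio 0.179), Col9a1 from 111 to 22 UMIs (0.238) and Col2a1 from 65 to 5 UMIs (0.0922, 0.029 to 0.226). These 3 passed the minimum through the heterozygous-mother library only and so had to differ. Few cells carried them: 13 and 4 cells of the gate had a Col2a1 UMI, up to 21 and 2 UMIs in a cell, and the 13 cells held 107 of the 181 Col9a3 UMIs. Tcfl5, opposite part of Col9a3, had 79 and 36 UMIs in this gate. Without these cells the ratio of Col9a3 was 0.29 and that of all collagens 1.24.

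**Figure D5:**
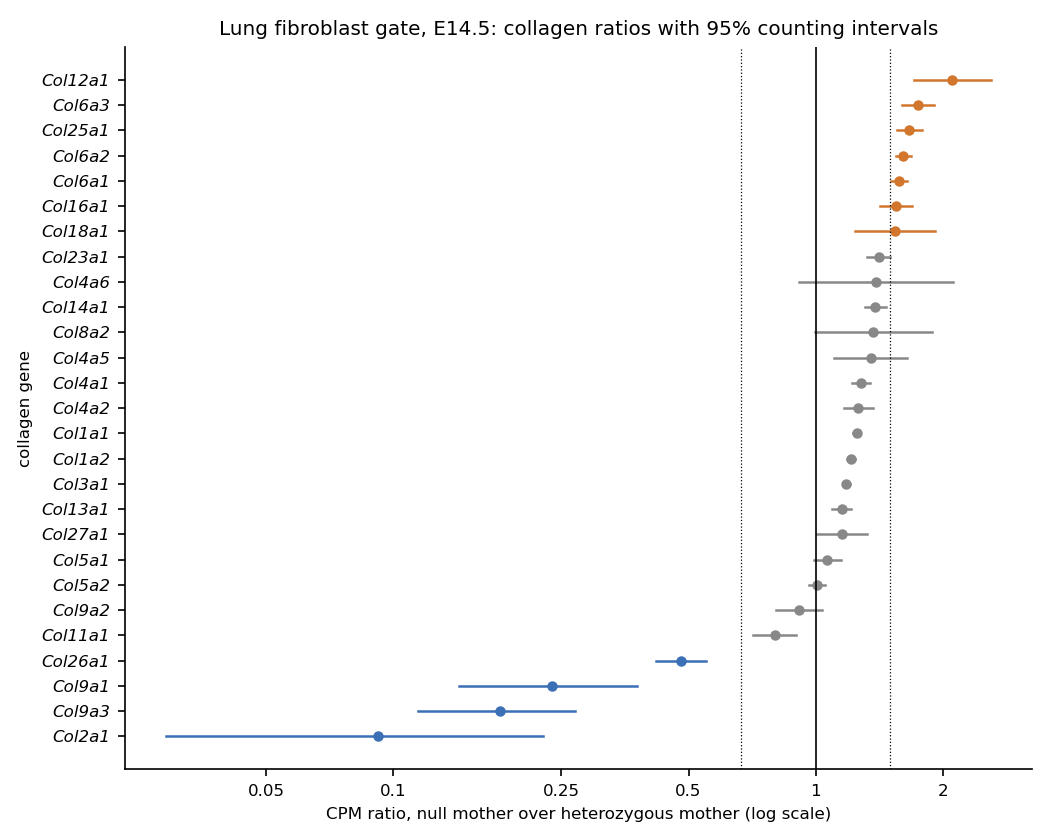
Ratio of CPM, null mother over heterozygous mother (log scale), for the 27 collagen genes measured in E14.5 lung fibroblasts, with 95% counting intervals; dotted lines mark 1.5 and 1/1.5. The 7 genes called higher lie between 1.54 and 2.1 and the 4 called lower between 0.0922 and 0.48, with types I, III and V near 1.

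Other measures moved with this contrast. The 8 fibroblast markers of the gate summed to 1937 and 2597 CPM, with none of them at 0, and 78.6% and 69.1% of the gate's cells carried at least 2 of 8 cycling genes. Collagen was higher outside the cycle, at 0.685% and 0.747% of UMIs against 0.433% and 0.528%. Among cells not cycling the summed ratio was 1.09. Of 24 measured collagen genes 1 was called higher (Col18a1) and 3 lower, and the share of all genes so called was not taken. Col18a1 (17 and 61 UMIs), Col9a1 (58 and 7) and Col9a3 (87 and 16) reached the minimum through 1 library only. Nothing is read from these counts. In the same cells Col6a1, Col6a2 and Col6a3 were at 1.27, 1.33 and 1.23, all above 1 with intervals from 1.03 up. Among cycling cells they were at 1.59, 1.62 and 1.85. The part of marker level and cell cycle in the difference was not tested.

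Pericytes gave the same direction from fewer cells. Their summed collagen share was 0.39% and 0.527%, and 3 of 11 measured genes were called higher and 0 lower, against 4.28% and 3.69% of all genes. Col6a1 went from 102 to 196 CPM (1.92, 1.48 to 2.51), Col6a2 from 106 to 249 CPM (2.34, 1.83 to 3.01) and Col1a1 from 476 to 743 CPM (1.56, 1.38 to 1.77), while Col6a3 was at 110 and 115 CPM. The lung fibroblast markers summed to 778 and 1060 CPM in this gate, and their part in the result was not tested. In smooth muscle the summed share was 0.523% and 0.561%, and 0 of 22 genes were called higher and 2 lower (2.79% and 2.27% of all genes). The 2 were Col26a1 and Col22a1 (16.7 and 10.9 CPM, ratio 0.651, 0.447 to 0.944). Col6a1 and Col6a2 were at 1.08 and 1.24 there, with median depths of 3547 and 11490 UMIs per cell.

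In E14.5 endothelium the summed share was 0.167% (0.163% to 0.17%) and 0.197% (0.194% to 0.2%), with Col4a1 at 731 and 974 CPM (1.33, 1.28 to 1.39) and Col4a2 at 320 and 436 CPM (1.36, 1.28 to 1.45). None of its 11 measured genes was called higher and 2 were called lower, where 4.25% and 1.71% of all genes were. These were Col23a1 (11 and 6.43 CPM) and Col1a1 (19.6 and 12.3 CPM, near the levels of late erythroid cells). The median log2 ratio was -0.32 over the 11 genes and 0.04 over all genes, although the sum was higher: Col4a1 and Col4a2 are among the 4 genes above 1 and hold most of the UMIs. Median depth was 7071.5 and 11265 UMIs per cell. In macrophages both measured genes were called higher and 0 lower, against 7.17% and 2.25% of all genes. Col1a1 went from 10 to 70 UMIs (12.6 to 42.6 CPM) and Col3a1 from 13 to 64 UMIs (16.3 to 38.9 CPM). Both reached the minimum through the null-mother library only and so had to differ in this direction, and nothing is read from their count. Lung fibroblast markers summed to 27.6 and 95.5 CPM there, with 3 and 0 of 8 at 0, and median depth was 3498 and 16013.5 UMIs. Their part in this was not tested.

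In epithelium the summed share was 0.0948% and 0.0858%, and 3 of 20 genes were called higher and 3 lower, against 4.55% and 1.64% of all genes. The largest in UMIs was Col2a1, from 87.2 to 32.1 CPM (0.368, 0.322 to 0.419). After thinning to 2000 UMIs, 16.1% (12.4% to 20.4%) and 7.06% (4.99% to 9.64%) of epithelial cells had a Col2a1 UMI. Its level was lower in the null-mother library in Sox9 cells (103 and 41.7 CPM) and in Sox2 cells (25.2 and 9.19 CPM) alike. Col4a4 was higher, from 23.8 to 37.6 CPM (1.58, 1.32 to 1.9), as were Col14a1 (3.34 to 7.64 CPM) and Col15a1 (4.73 to 7.38 CPM). The last 2 reached the minimum through the null-mother library only, with 24 and 87 UMIs of Col14a1 and 34 and 84 of Col15a1, and nothing is read from their calls. Col5a1 (9.05 to 5.97 CPM, 65 and 68 UMIs) and Col12a1 (7.1 to 4.57 CPM, 51 and 52 UMIs) were lower. Their ratios of 0.66 (0.463 to 0.942) and 0.643 (0.429 to 0.966) have intervals that span the limit of 1/1.5. Col18a1, the main collagen of the gate, had a ratio of 0.944 (0.895 to 0.996), Col9a3 1.07 (0.941 to 1.21) and Col4a5 0.991 (0.853 to 1.15).

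In the E18.5-labelled libraries the summed endothelial share was 0.129% and 0.0961%, a ratio of 0.746 (0.697 to 0.797) that was 0.666 in cells not cycling and 1.02 in cycling cells. Col4a1 (0.773, 0.704 to 0.849) and Col4a2 (0.784, 0.685 to 0.896) were both below 1, and neither was called. Of the 5 measured genes 0 were called higher and 1 lower, against 3.16% and 3.83% of all genes. That was Col5a2, at 77.6 and 30 CPM (0.386, 0.271 to 0.544). With 117 and 49 UMIs it reached the minimum through the heterozygous-mother library only, and nothing is read from its call. The 8 lung fibroblast markers summed to 96.8 and 49.5 CPM in this endothelium, 5 of them at 0 in each library. Their part was not tested. In hepatocytes none of 4 genes was called (11.9% of all genes were called higher and 1.64% lower), with Col18a1 at 0.953 (0.896 to 1.01). In early erythroid cells Col5a1 had a ratio of 0.85 (0.808 to 0.896), and 1 of 3 genes, Col18a1 (2.48 and 3.74 CPM), was called higher and 0 lower, against 2.5% and 1.91% of all genes. Col18a1 had 42 and 75 UMIs there, so it reached the minimum through the null-mother library only. Over all cells of the 2 libraries it stood at 18.6 and 49.8 CPM, and the part of RNA from other cells was not tested. In B lineage cells 0 of 2 genes were called (2.83% and 1.67% of all genes), with Col27a1 at 0.826 (0.625 to 1.09) and Col5a3 at 0.746 (0.502 to 1.1). In late erythroid cells the ratio of Col5a1 was 1.11 (0.973 to 1.27) and 0 of 1 genes was called (30% and 0.884% of all genes), where the median log2 ratio of all genes was 0.43. No collagen gene was measured in neutrophil gates, whose summed shares were 0.00263% and 0.00109% in early precursors and 0.00208% and 0.00263% in later cells.

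Collagen chains are hydroxylated and folded in the cell, trimmed outside it, cross-linked, coated by small leucine-rich proteoglycans and bound by receptors. Of 62 genes in 7 lists of these steps, 47 were measured in E14.5 lung fibroblasts; 8 were called higher and 1 lower, beside 2.78% and 2.15% of all genes. The small leucine-rich proteoglycans, which bind fibrils and set their spacing, gave 5 of 7 higher (median log2 0.77). Aspn, the asporin gene, went from 4.52 to 16.3 CPM (3.6, 2.81 to 4.65) and Prelp from 5.79 to 10.3 CPM (1.79, 1.4 to 2.3). The same list gave 5 of 7 higher in smooth muscle, where 2.79% of all genes were, and 2 of 3 in pericytes, where 4.28% were. In smooth muscle Aspn (35 and 103 UMIs) and Prelp (40 and 99) reached the minimum through the null-mother library only. So did both pericyte genes, Dcn (20 and 187 UMIs) and Fmod (43 and 57), and nothing is read from these 4 calls. Of the genes called, Ogn in fibroblasts, Lum in smooth muscle (ratio 1.61) and Dcn in pericytes (21 to 241 CPM) are also markers of the Lum Dcn fibroblast gate, and their part in these counts was not tested. Of the cross-linking lysyl oxidases, 2 of 4 were called higher: Loxl1 went from 11.8 to 20.9 CPM (1.76) and Lox from 89.2 to 143 CPM (1.61). Of 5 propeptide cleavage genes 1 was called higher, Adamts2, a procollagen N-proteinase (16.5 to 25.5 CPM, 1.55), with Adamts3 at 1.32. Of 14 hydroxylation and glycosylation genes 1 was called lower, the prolyl 3-hydroxylase P3h2 (7.21 to 3.85 CPM, 0.534), with P4ha3 at 1.29. The lists of folding and export (7 genes), of breakdown and its inhibitors (5) and of receptors (5) had none called. Their values farthest from 1 were Sec24d at 1.11 and Mia3 at 1.11 (export of procollagen from the endoplasmic reticulum), Timp3 at 0.76 and Timp2 at 1.17 (inhibitors of matrix metalloproteinases), and Mrc2 at 1.26 and Itga1 at 1.19 (uptake receptor and integrin). In epithelium 2 of 3 cross-linking genes were called lower, where 1.64% of all genes were: Loxl1 (13.4 to 6.85 CPM) and Loxl2 (12.5 to 6.33 CPM). In fibroblasts Loxl2 had a ratio of 1.05 (0.955 to 1.16), and the difference between the gates was not tested.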

How the data were processed

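The authors deposited a single matrix of UMI counts per gene and cell (31053 genes, 43351 cells, none under 500 UMIs) with a table naming the library of each cell. Cell Ranger 3.0.0, Seurat 4.3.0 and the mm10 genome are named, with no settings, in the submitters' processing notes. The gene and barcode lists carry each other's names and were used by content. The depth per library is given at the start of the report.

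The collagen genes, marker lists and lists of processing genes were chosen with earlier results of these data known. Cells entered a gate with at least 3 of 8 markers found, at least 2 more than any list of another family and at least 1 more than any list of its own family; 1 marker is not in the matrix. No doublet caller was run. The margin leaves out cells with near-equal marker counts of 2 lists, but a mixed cell with a larger lead still enters a gate. An alternative drops the cells above the 95th percentile of UMIs. UMIs were summed per gate and library and divided by the gate total (CPM). Levels carry exact Poisson, shares Clopper-Pearson and ratios conditional binomial 95% intervals; UMI counts are not independent of pooling and capture, so these cover counting error only. Shares of cells were taken after thinning each cell to 2000 UMIs (seed 1), leaving out shallower cells. The limit for a share of 0 is 3 counts of the total.

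Named with values were genes with at least 50 UMIs in a gate and library, in full the highest of each type, gate-restricted and called genes, and of each processing list the 2 with the largest ratio in lung fibroblasts. The ratio calculation was tested on simulated data. Gene positions come from GENCODE vM21 (GRCm38) and upstream sequences from RefSeq windows, which 35 of the 44 genes had. Alternatives changed the marker rule, the cells, the UMI minimum and the scaling (factors from edgeR 4.0.16 and DESeq2 1.42.0, with no test). Python 3.11.15, numpy 2.4.6, scipy 1.17.1, pandas 2.3.3, matplotlib 3.10.9 and R 4.3.3 were used.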

Additional observations from a re-analysis of the deposited data

Results flagged for a closer look

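Between mothers, a pair of collagen genes was called in opposite directions in different E14.5 gates, and the difference between gates was not tested. Col12a1 had a ratio (null over heterozygous mother) of 0.643 in epithelium and 2.1 in lung fibroblasts. Col1a1 had 0.626 in endothelium, 1.56 in pericytes and 3.39 in macrophages; the endothelial value rests on levels near those of erythroid cells, and the macrophage value reached the minimum of 50 UMIs through the null-mother library only.

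Cells that entered no gate, and so take no part in the comparisons, held collagen RNA. Its share of their UMIs was 0.403% and 0.382% in the E14.5 libraries (2073 and 1745 cells) and 0.0183% and 0.0201% in the E18.5-labelled libraries (3000 and 3691 cells).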

How the results depend on the processing

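Of 16 alternatives, the UMI minimums of 10 and 200 changed counts of calls only and gave no ratios. Under the others, the 26 called pairs of a gene and a gate outside macrophages, which were not run, gave 340 ratios. Of these, 339 kept their direction and 305 stayed within their interval. The exception was Col1a1 in E14.5 endothelium, at 1.05 among male cells. The alternatives reuse the same libraries, and some pairs reached the minimum through 1 library only, so a kept direction is no separate support. Of 101 summed ratios 65 stayed within their interval and 36 moved; the cause was not tested. No paired analysis was possible because each group is 1 library. For the same reason no replicate could be left out. Cell cycle, shared barcodes and the Sox9 and Sox2 division were added after seeing the data. For the counts of calls between mothers given below, the share of all genes called under the same alternative was not taken. Nothing particular to collagens is read from how those counts change.

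The summed ratio in E14.5 lung fibroblasts (1.24) was 1.22 with markers of at least 2 UMIs, 1.19 in male and 1.28 in female cells, 1.09 outside the cycle and 1.22 within it, 1.26 with TMM and 1.26 with median-of-ratios factors, and 1.23 as a per-cell mean. Its 11 called genes became 4 outside the cycle and 7 at a minimum of 200 UMIs. In smooth muscle (1.07) the same settings gave 1.11 for stricter markers, 1.03 without the deepest cells, 1.11 for the quality limit, 1.1 for TMM, 1.1 for median of ratios, 1.19 per cell and, on the other side of 1, 0.995 in female cells. Its 2 calls became 1 in female cells, 0 outside and 1 within the cycle, 4 per cell, and 6 and 0 at minimums of 10 and 200 UMIs. In pericytes (1.35) the ratio was 1.45 without the deepest cells and 1.28 with median of ratios. Their 3 calls became 5 in the former, 5 without shared barcodes, and 9 and 1 at minimums of 10 and 200. In endothelium (1.18) the ratio was 1.11 without the deepest cells, 1.24 under the quality limit, 1.24 in male and 1.14 in female cells, 1.13 without shared barcodes and 1.46 outside the cycle. Its 2 calls became 5 with stricter markers, 1 under the quality limit, 1 in male cells, and 8 and 0 at minimums of 10 and 200. In epithelium (0.905) the ratio was 0.866 without the deepest cells, 0.943 under the quality limit, 0.944 in female cells, 0.87 without shared barcodes, 0.936 outside the cycle and 0.762 per cell. Its 6 calls became 1 outside the cycle, and 10 and 2 at minimums of 10 and 200.

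In E18.5-labelled endothelium (0.746) the ratio was 0.873 in male cells, 0.666 outside the cycle and 1.02 within it. Its 1 call became 2 outside and 0 within the cycle, and 5 and 0 at minimums of 10 and 200. Hepatocytes (0.966) gave 1.02 under the quality limit, 0.852 within the cycle, 0.894 with TMM and 0.896 with median of ratios. The 6 gate-restricted genes of E14.5 became 10 at 2 times and 3 at 8 times every other gate, where the 784 of all genes became 1363 and 533. The 4 of E18.5 became 2 in male cells, where the 1368 of all genes became 954. At E14.5 Col22a1 lost this call without the deepest cells, Col22a1 and Col4a4 in male cells, and Col4a6 as a per-cell mean. At E18.5 Col5a1 lost it in male cells, under the quality limit and at 8 times, and Col13a1 in male cells. The Col5a1 shares of early erythroid cells were 13.6% and 12.9% at 1000 UMIs. With under 50 cells left, pericytes were not run for 4 markers, stricter markers, the quality limit, either sex or the cycle, nor endothelium, hepatocytes and early erythroid cells of E18.5 for female cells, nor the latter outside the cycle. With 1 library a group, pooled fetuses, capture and sequencing cannot be told apart from the mother.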
